A study of Homo sapiens with 118 samples.

Results

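The genes described here encode the enzymes and regulators of de novo lipogenesis in human liver cells: ACLY, ACACA, ACACB, FASN, SCD, ELOVL6, ME1, THRSP, GPAM and MLXIPL. The members were the rows of the count table whose name, without its trailing probe number, was one of these 10 gene symbols, which gave 13 rows of 22068, since ACACA was measured by 4 probes and every other gene by 1. Differentiated HepaRG cells, an established human liver line that holds hepatocyte-like and biliary-like cells, were exposed for 72 h, with the medium and chemical renewed daily, to 1 of 8 inhibitors of histone deacetylases at 5 steps of concentration, where C1 is the lowest and C5 the highest. RNA was read from lysates by TempO-Seq, in which pairs of detector oligos that meet on a transcript are ligated, amplified and counted. There were 118 libraries in 40 groups of 1 chemical and 1 concentration, with 3 libraries in 38 groups and 2 libraries in panobinostat C3 and trichostatin A C4. The libraries of a group came from 3 batches of HepaRG cells, called batches 1, 2 and 3 here, all of 1 cell line.

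The labelled concentrations ran from 0.041722 to 0.86 µM for apicidin, a cyclic tetrapeptide, from 0.177222 to 3.9 µM for mocetinostat and from 1.143333 to 44 µM for tacedinaline, which are benzamides. They ran from 0.001468 to 0.084 µM for panobinostat, from 4.94 to 94.5 µM for scriptaid, from 0.018811 to 1.5237 µM for trichostatin A and from 0.404778 to 23.5 µM for vorinostat, which are hydroxamates. Valproic acid, a short branched fatty acid, was labelled 100.478 to 3038, with no unit that the labels settle. Apicidin, mocetinostat, panobinostat, trichostatin A and valproic acid were on plate H with 73 libraries, and scriptaid, tacedinaline and vorinostat on plate E with 45 libraries. Solvent controls were not analysed here, so each change below is relative to C1 of the same chemical, whose cells were also exposed to the inhibitor.

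De novo lipogenesis turns carbon from sugars into fatty acids. ACLY splits exported citrate into acetyl-CoA, ACACA and ACACB carboxylate it to malonyl-CoA, FASN joins these units into palmitate with NADPH that ME1 helps to supply, ELOVL6 lengthens palmitate, SCD adds the first double bond, and GPAM starts the assembly of glycerolipids by joining a fatty acid to glycerol phosphate. In the liver the pathway is switched on after feeding, largely through SREBP proteins under insulin and LXR, and through MLXIPL, also called ChREBP, under glucose; THRSP is a small protein, abundant in lipogenic tissues, that rises with the same signals.

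The sequences before the start sites of THRSP, GPAM and SCD are shown because THRSP had the largest fitted falls among the members, while GPAM and SCD were the members that rose under some inhibitors and fell under others. Each run is the 250 bases before the RefSeq gene start on assembly GRCh38.p14, written on the gene's strand, with matches to CCAAT or GGGCGG on either strand in capitals. The intervals are chr11:78063611-78063860 on the plus strand for THRSP, chr10:112183766-112184015 on the minus strand for GPAM and chr10:100346983-100347232 on the plus strand for SCD.
THRSP: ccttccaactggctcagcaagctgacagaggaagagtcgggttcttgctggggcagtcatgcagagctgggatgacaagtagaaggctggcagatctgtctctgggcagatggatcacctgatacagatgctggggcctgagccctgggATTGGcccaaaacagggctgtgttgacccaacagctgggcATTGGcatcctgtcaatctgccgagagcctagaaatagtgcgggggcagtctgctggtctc
GPAM: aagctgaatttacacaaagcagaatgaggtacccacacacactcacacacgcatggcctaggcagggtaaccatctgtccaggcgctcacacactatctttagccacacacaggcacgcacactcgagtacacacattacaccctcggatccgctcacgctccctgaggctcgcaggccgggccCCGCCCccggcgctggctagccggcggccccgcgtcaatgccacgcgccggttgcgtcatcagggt
SCD: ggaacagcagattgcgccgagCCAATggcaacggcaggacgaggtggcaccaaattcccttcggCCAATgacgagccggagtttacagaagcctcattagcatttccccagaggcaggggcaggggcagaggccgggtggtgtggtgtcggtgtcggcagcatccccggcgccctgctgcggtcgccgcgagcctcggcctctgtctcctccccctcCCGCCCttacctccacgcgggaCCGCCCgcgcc

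The RefSeq promoter table held 13 windows for 9 of the 10 genes, all but FASN, each with 250 bases before and 50 after a start, and 35116 windows in all. The letters CACGTG, the core of the E-box, were in 0 of the 13 member windows and in 7.256% of all windows. TCACNCCAC, the letters of a sterol response element, was in 0 of the 13 and in 1.128% of all windows. CCAAT was in 8 of the 13 and in 34.61% of all windows, and GGGCGG, the GC box, in 10 of the 13 and in 44.95%. Both strands were searched, and no match to 1 of these motifs overlapped a match to another in the member windows. These are counts of letters in short windows, and ACLY, ACACA and ACACB each hold more than 1 window.

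Library totals ran from 1061359 to 5250260 counts with a median of 3702007. Counts were scaled to CPM, the counts per 1e+06 counts of the library, with TMM factors, and each chemical was fitted on its own with edgeR's quasi-likelihood test across all its features that passed a filter on low counts. A feature was called where its Benjamini-Hochberg adjusted p was under 0.05 and its fold change at least 1.5. Values of CPM here compare 1 probe between libraries, not 1 gene with another, since probes of different genes capture unequally. Of the 13 member rows, 12 passed the filter in every chemical. The row of ME1 did not: it had at most 9 counts in any library and 3 or fewer in 105 of 118, so no change of it was detectable at this depth.

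Some libraries stood apart from their group mates. The mean correlation of a library with the others of its group, over 9074 well-expressed features, had a median of 0.961, and 12 of 118 libraries lay under 0.9, in 7 groups. The lowest library of those groups was batch 3 of scriptaid C4 (0.767), batch 3 of mocetinostat C2 (0.790), batch 3 of trichostatin A C1 (0.857), batch 1 of mocetinostat C3 (0.864), batch 1 of apicidin C4 (0.871), batch 3 of valproic acid C4 (0.872) and batch 2 of panobinostat C2 (0.885). The other libraries of scriptaid C4 (0.843 and 0.858) and of mocetinostat C2 (0.850 and 0.895) also lay under 0.9. So did batch 2 of valproic acid C4 (0.895), and all of these were kept. Below, the libraries that stood apart are the 7 lowest. Results that rest on these groups are given with all libraries and, where they change, without those 7. The C5 groups held none of them, and only trichostatin A had one at C1.

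The 17 rows of hepatocyte marker genes, such as ALB and CYP3A4, fell with the inhibitors in the same libraries. At C5, 16 of the 17 fell with apicidin, 17 with mocetinostat, 14 with panobinostat, 17 with scriptaid, 17 with tacedinaline, 15 with valproic acid and 17 with vorinostat, and 0 with trichostatin A. Their summed level was 45855 to 91985 CPM over the C1 libraries of the 7 chemicals with calls and 3583 to 34485 CPM over their C5 libraries. In trichostatin A it was 15895 to 72660 CPM at C1, the lowest in batch 3, and 46732 to 57148 CPM at C5. The part of this shift in the changes of the lipogenic genes was not tested, and in lysates of whole cultures fewer cells of a type and less RNA per cell cannot be told apart. The 12 rows of biliary-like markers summed to 65.4 to 167 CPM at C1 and 67.3 to 228 CPM at C5 over all chemicals, the 14 stromal rows to 181 to 363 and 111 to 235 CPM, and the 10 immune and endothelial rows to 31.4 to 135 and 17.7 to 63.1 CPM, with 5 to 7 of the 10 at 3 counts or fewer in every library of a group. SOX9 and SPP1, biliary markers, chosen after their values were seen, rose in 5 chemicals each.

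At C5 the fatty acid synthase gene FASN fell in 6 of the 8 chemicals, THRSP and MLXIPL in 5 each, ACACB in 4, and ELOVL6 in 3. SCD fell in 3 and rose in 1, and GPAM fell in 3 and rose in 2. ACLY was called in 1 chemical, where it rose, and the ACACA probes in at most 2. Tacedinaline and vorinostat had 8 of the 12 tested rows falling and 0 rising, against 38.8% and 47.5% of all their tested features called in either direction. Apicidin and mocetinostat had 6 falling and 0 rising, against 28.8% and 30.5% of all features. Scriptaid had 2 rising and 2 falling, which is 33.3% of the members beside 29.8% of all features. Panobinostat and valproic acid had 1 rising and 1 falling each, which is 16.7% of the members beside 16.2% and 11.1% of all features. The members' share was thus near that of all features in scriptaid, panobinostat and valproic acid. Trichostatin A had 0 calls among the members and 0.0154% among all features, with 2 of the 12 member rows at an unadjusted p under 0.05 and 0 calls by DESeq2.

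**Figure D1:**
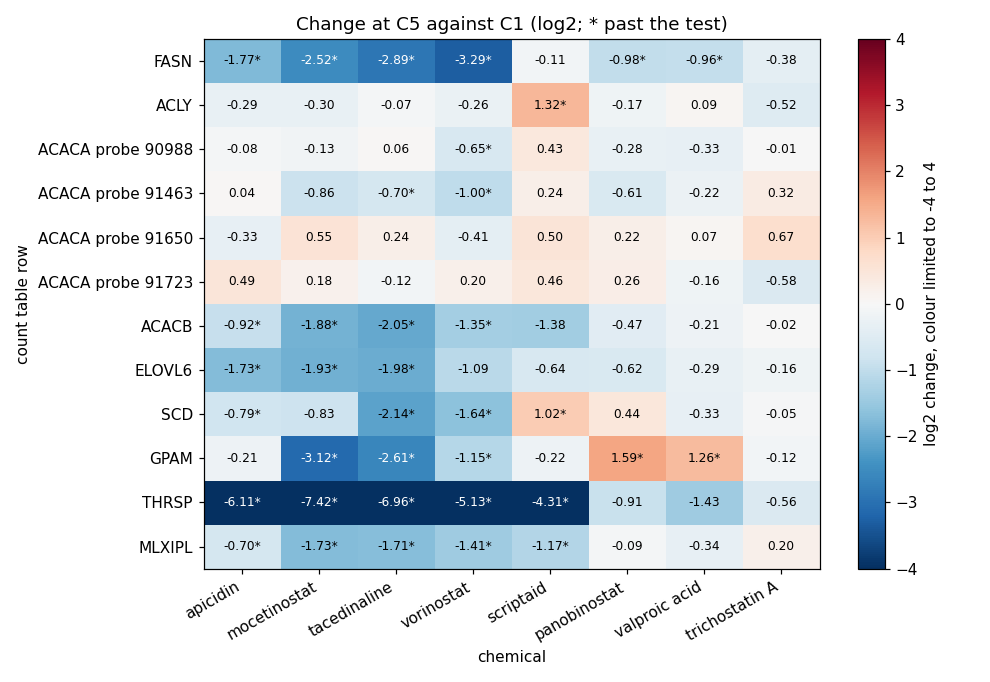
Fitted log2 change at C5 against C1 for the 12 tested rows (vertical) in the 8 chemicals (horizontal), with colour for direction and size, limited to -4 to 4, and a star where the change was called, from 3 libraries a group. FASN is negative in all 8 columns and starred in 6, GPAM is 1.59 in panobinostat and -3.12 in mocetinostat, and no row is starred in trichostatin A.

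The median log2 change of the 12 member rows at C5 was -1.85 in tacedinaline, -1.30 in mocetinostat, -1.12 in vorinostat and -0.52 in apicidin. It was -0.25 in valproic acid, -0.23 in panobinostat, -0.09 in trichostatin A and 0.06 in scriptaid, while the median over all tested features lay between -0.002 and 0.084. A straight line on log2 concentration through all 5 steps gave 7 falling members in tacedinaline, 6 in mocetinostat and vorinostat, 5 in apicidin, 1 in scriptaid and 0 in trichostatin A, none of these with a rising member. It gave 1 rising and 2 falling in both panobinostat and valproic acid. The same line called 43.3% of all features in tacedinaline, 35.6% in mocetinostat, 47.4% in vorinostat, 34.4% in apicidin, 13.0% in scriptaid, 0.0616% in trichostatin A, 17.4% in panobinostat and 14.9% in valproic acid. In trichostatin A 1 member had an unadjusted p under 0.05 for the line. Leaving out batch 3 lowered the apicidin count at C5 from 6 to 3, while the share of all features called fell to 17.7%. In scriptaid the count was 7 without batch 3, 1 without batch 2 and 2 without batch 1, beside 36.0%, 12.3% and 14.5% of all features. Valproic acid had 0 members called at C5 without batch 1 and 1 without batch 3, beside 3.53% and 8.89%. In these leave-outs the members' count thus moved in the same direction as the share of all features. With the 7 libraries named above left out, the counts at C5 were 8 in mocetinostat, 3 in panobinostat, 5 in scriptaid, 6 in apicidin, 2 in valproic acid and 0 in trichostatin A, beside 39.2%, 20.7%, 41.2%, 32.5%, 13.9% and 0.808% of all features.

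FASN, which builds palmitate, had the most calls among the members. In vorinostat its level was 425, 387 and 340 CPM at C1 in batches 1 to 3 and 33.5, 46.6 and 27.1 CPM at C5. In tacedinaline it was 682, 683 and 647 CPM at C1 and 84.1, 56.9 and 118 CPM at C5. The groups did not overlap in either chemical, and FASN fell by 3.29 ± 0.19 (log2, SE, adjusted p = 6.0e-16) in vorinostat and by 2.89 ± 0.17 (adjusted p = 1.9e-18) in tacedinaline. In mocetinostat it was 1478, 1640 and 1803 CPM at C1 and 238, 235 and 337 CPM at C5, and in apicidin 901, 838 and 889 CPM at C1 and 226, 214 and 323 CPM at C5. These were log2 changes of -2.52 ± 0.20 and -1.77 ± 0.18. Panobinostat and valproic acid had smaller falls, with every C5 library again below every C1 library. FASN went from 538, 546 and 547 CPM to 308, 263 and 266 CPM in panobinostat, a log2 change of -0.98 ± 0.14, and from 474, 414 and 483 CPM to 219, 237 and 245 CPM in valproic acid, a log2 change of -0.96 ± 0.16. The call in valproic acid was lost without batch 1, where the change was -0.89 with an adjusted p of 0.056.

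In scriptaid the C1 libraries of FASN were close together at 397, 378 and 383 CPM, while those at C5 spread over 503, 342 and 174 CPM, on both sides of C1. The log2 change was -0.11 ± 0.29 and its adjusted p 0.80. Trichostatin A had 592, 503 and 320 CPM at C1, with the low value in the library that stood apart, and 349, 307 and 421 CPM at C5, a log2 change of -0.38 ± 0.20 (adjusted p = 0.57). Without batch 3 the change in trichostatin A was -0.73 and was called (adjusted p = 0.023), beside 284 of 12675 features called. Without only the C1 library of batch 3 the change was -0.60 with an adjusted p of 0.065.

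The fall of FASN was called from C3 on in the chemicals with the largest falls at C5, except vorinostat. At C3 the log2 change was -0.90 in mocetinostat, -0.87 in tacedinaline and -0.67 in apicidin, all called, while vorinostat had -0.52 with an adjusted p of 0.040, under the fold that a call needs. At C4 the changes were -2.31 in tacedinaline, -2.18 in mocetinostat, -1.60 in vorinostat and -1.0 in apicidin, and panobinostat had -0.60. Valproic acid had -0.57 at C4 (adjusted p = 0.020), under the fold that a call needs. The C3 calls in apicidin were lost without batch 2 (-0.71, adjusted p = 0.052) or batch 3 (-0.63, adjusted p = 0.11), and that in mocetinostat without batch 2 (-0.88, adjusted p = 0.16). The panobinostat call at C4 was lost without any 1 of the batches, with changes of -0.64, -0.58 and -0.58, and under library totals alone (-0.56).

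**Figure D2:**
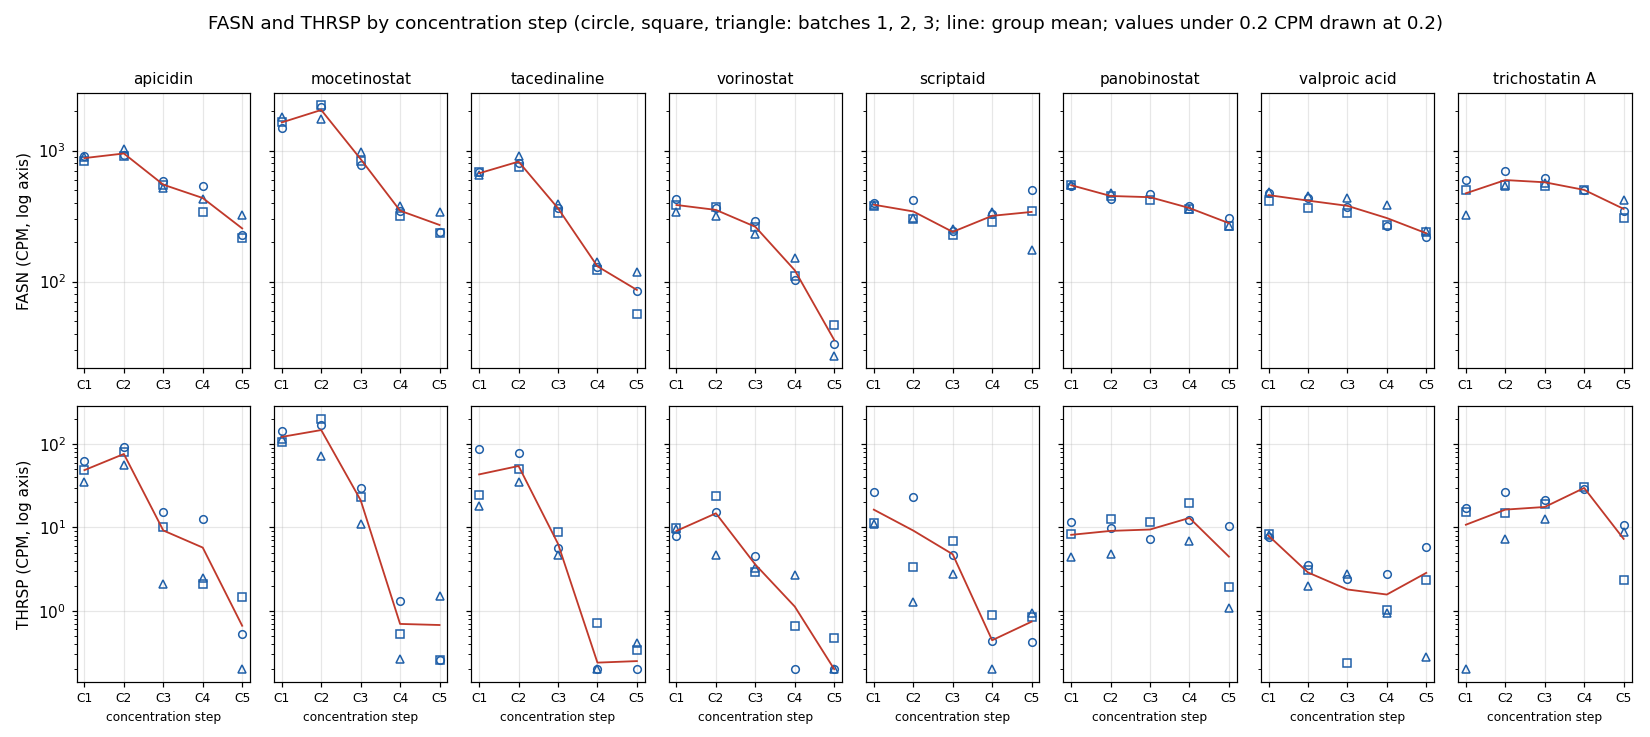
CPM of FASN (upper row) and THRSP (lower row) on log axes against the concentration step C1 to C5, 1 panel a chemical, with a symbol for each library by batch and a line through the group means; values under 0.2 CPM are drawn at 0.2. FASN falls step by step in apicidin, mocetinostat, tacedinaline and vorinostat from C2 to C5, and THRSP reaches group means under 1 CPM at C5 in these and in scriptaid.

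ACLY, which supplies cytosolic acetyl-CoA, rose in scriptaid and, with all libraries, was not called at any step in the other chemicals. In mocetinostat C2, which held a library that stood apart, its level split between the batches, as given at the end. In scriptaid it was 37.2, 27.9 and 37.2 CPM at C1 and 91.2, 88.6 and 63.5 CPM at C5, with no overlap, a log2 change of 1.32 ± 0.38 (adjusted p = 0.013). That call was lost without batch 1 (1.28, adjusted p = 0.10) and without batch 2 (1.13, adjusted p = 0.21). In the other 7 chemicals the log2 change of ACLY at C5 lay between -0.52 in trichostatin A and 0.09 in valproic acid.

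Of the 4 probes of ACACA, the cytosolic acetyl-CoA carboxylase, 2 were called at C5. The probe ACACA_91463 had the most counts, with a median of 410 a library, and went from 174, 146 and 150 CPM at C1 to 53.1, 93.2 and 67.8 CPM at C5 in vorinostat and from 147, 127 and 146 to 85.1, 79.5 and 80.7 CPM in tacedinaline. These were called falls with log2 changes of -1.0 ± 0.19 and -0.70 ± 0.17, without overlap. Under library totals alone the tacedinaline change was -0.51, under the fold that a call needs. In vorinostat the probe was already called at C4 (-0.78 ± 0.19). ACACA_90988 fell in vorinostat alone (-0.65 ± 0.27, adjusted p = 0.039), a call that was lost without batch 1 (-0.35), without batch 3 (-0.80, adjusted p = 0.050) and under library totals alone (-0.56). With all libraries ACACA_91650 and ACACA_91723 were called in none of the chemicals at any step, with log2 changes at C5 from -0.41 to 0.67 and from -0.58 to 0.49. In scriptaid without batch 3, ACACA_90988 (0.74, adjusted p = 0.025) and ACACA_91650 (0.89, adjusted p = 0.041) were called as rises at C5. In that leave-out 4638 of 12871 features were called. In panobinostat ACACA_91463 was not called at C5 (-0.61, adjusted p = 0.062), but it was with the batch as a block (-0.64, adjusted p = 0.044), without the libraries that stood apart (-0.61, adjusted p = 0.0065), without batch 2 (-0.78, adjusted p = 0.011) and without a filter (-0.60, adjusted p = 0.034). In mocetinostat it was likewise not called (-0.86, adjusted p = 0.14), but it was without the libraries that stood apart (-0.92, adjusted p = 0.00017), in the fit of all 118 libraries (-0.95, adjusted p = 0.0099) and without a filter (-0.94, adjusted p = 0.049).

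ACACB, the carboxylase at the mitochondrial surface, whose malonyl-CoA restrains fatty acid import, fell in the same 4 chemicals in which FASN fell most. In tacedinaline it was 109, 128 and 69.6 CPM at C1 and 16.8, 32.5 and 19.6 CPM at C5. In mocetinostat it was 210, 205 and 210 CPM at C1 and 68.3, 40.6 and 51.2 CPM at C5. The C5 libraries lay below the C1 libraries in both, with log2 changes of -2.05 ± 0.26 and -1.88 ± 0.36. The change was -1.35 ± 0.22 in vorinostat and -0.92 ± 0.30 in apicidin, where the call was lost without batch 2 (-0.78, adjusted p = 0.13) or batch 3 (-0.88, adjusted p = 0.14). In scriptaid ACACB was 112, 92.9 and 138 CPM at C1 and 53.4, 36.6 and 35.8 CPM at C5, and its change of -1.38 ± 0.51 fell just short of a call (adjusted p = 0.050). At C3 ACACB was called in apicidin (-0.94 ± 0.30) and tacedinaline (-0.73 ± 0.24). The apicidin call was lost without batch 3 (-0.775, adjusted p = 0.298), and the tacedinaline call without batch 1 (-0.70, adjusted p = 0.16), without batch 2 (-0.453, adjusted p = 0.415) and under library totals alone (-0.58, adjusted p = 0.092). At C4 it was called in mocetinostat (-2.30 ± 0.36), tacedinaline (-1.56 ± 0.24) and vorinostat (-0.90 ± 0.21). The scriptaid C4 group held 89.1, 100 and 602 CPM, the last in the library that stood apart. Without that library the C5 change was -1.39 and was called, as it was with the batch as a block (-1.32, adjusted p = 0.038), by DESeq2 (-1.38, adjusted p = 0.035), with all 118 libraries in 1 fit (-1.45), without a filter on low counts (-1.46) and under library totals alone (-1.23).

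ELOVL6, which lengthens palmitate to stearate, was measured by few counts, with a median of 31 a library. It fell at C5 in apicidin, from 12.4, 23.5 and 22.9 CPM to 6.80, 5.87 and 4.73 CPM, a log2 change of -1.73 ± 0.38 (adjusted p = 0.0014). In tacedinaline it went from 13.5, 17.2 and 16.6 CPM to 4.45, 4.11 and 2.85 CPM (-1.98 ± 0.50), and in mocetinostat from 17.7, 19.0 and 18.9 CPM to 6.19, 6.42 and 0.909 CPM (-1.93 ± 0.63). The C5 libraries lay below the C1 libraries in all 3 chemicals. The mocetinostat call was lost without any 1 of the batches, at adjusted p values of 0.062, 0.11 and 0.092. In the other 5 chemicals the change lay between -1.09 in vorinostat and -0.16 in trichostatin A and was not called. At C4 it was called in apicidin (-1.11) and tacedinaline (-1.65); the apicidin call was lost without batch 1 (-1.14, adjusted p = 0.056), batch 2 (-0.81, adjusted p = 0.31) or the library of batch 1 that stood apart (-0.89, adjusted p = 0.091), and the tacedinaline call without batch 2 (-1.11, adjusted p = 0.14).

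SCD, which makes oleate from stearate, fell in 3 chemicals and rose in 1. In tacedinaline it was 830, 929 and 667 CPM at C1, rose at C2 to 1377, 1584 and 1264 CPM and lay at 176, 169 and 180 CPM at C5. The C2 change was 0.80 ± 0.16 (adjusted p = 0.0093) and the C5 change -2.14 ± 0.17 (adjusted p = 8.9e-14), so that the same gene passed the test in opposite directions at a low and a high concentration. The C2 call was lost without batch 3 (0.75, adjusted p = 0.061). In vorinostat SCD went from 433, 510 and 559 CPM to 133, 144 and 171 CPM at C5 (-1.64 ± 0.15), and in apicidin from 342, 286 and 302.7 CPM to 152, 219 and 163 CPM (-0.79 ± 0.26), a call that was lost without batch 3 (-0.76, adjusted p = 0.19). The C1 and C5 libraries did not overlap in either chemical. In scriptaid SCD was 389, 383 and 584 CPM at C1 and 931, 787 and 897 CPM at C5, all C5 libraries above all C1 libraries, a change of 1.02 ± 0.26 (adjusted p = 0.0064). That call was lost without batch 1 (0.85, adjusted p = 0.13) and without batch 2 (0.98, adjusted p = 0.13). Valproic acid had a fall at C4 (-0.92 ± 0.20) and -0.33 at C5, which was not called; the C4 call was lost without batch 1 (-1.08, adjusted p = 0.052). In mocetinostat the C5 change of -0.83 was not called with all libraries (adjusted p = 0.12) and was called without the libraries that stood apart (-0.89, adjusted p = 0.0071), without batch 1 (-1.04), without a filter (-0.91) and in the fit of all 118 libraries (-0.91).

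GPAM, which takes fatty acids into glycerolipids, had opposite calls between chemicals and, within 2 chemicals, between concentrations. In panobinostat it rose from 37.7, 26.9 and 41.5 CPM at C1 to 131, 98.7 and 93.7 CPM at C5, and in valproic acid from 25, 62.3 and 25.5 CPM to 87.5, 78.2 and 101 CPM. No C5 library lay under a C1 library in either chemical, and the log2 changes were 1.59 ± 0.29 (adjusted p = 0.00043) and 1.26 ± 0.29 (adjusted p = 0.0051). The valproic acid call was lost without batch 1 (1.04, adjusted p = 0.20) or batch 3 (0.95, adjusted p = 0.051). In mocetinostat GPAM fell from 105, 172 and 173 CPM to 19.6, 7.96 and 21.5 CPM, a change of -3.12 ± 0.42 (adjusted p = 3.7e-05).

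In tacedinaline GPAM was 95.2, 121 and 86.9 CPM at C1, 222, 213 and 160 CPM at C2, 253, 218 and 193 CPM at C3, 50.9, 59.2 and 43.2 CPM at C4 and 13.4, 17.1 and 16.3 CPM at C5. It thus stood above C1 in every batch at C2 and C3 and below it in every batch at C4 and C5. The log2 changes were 0.97, 1.15, -0.93 and -2.61, all called. In vorinostat GPAM was 35.8, 58.7 and 47.6 CPM at C1, 87.1, 138 and 97.1 CPM at C3, 144, 131 and 138 CPM at C4 and 27.0, 17.0 and 17.7 CPM at C5. The called log2 changes were 1.2 at C3, 1.57 at C4 and -1.15 ± 0.25 at C5. Apicidin had a rise at C3 (0.99 ± 0.26) and -0.21 at C5, which was not called. Panobinostat (1.2) and valproic acid (1.05) were already called at C4. The call at C2 in tacedinaline was lost without batch 1 (0.85, adjusted p = 0.11) or batch 2 (1.07, adjusted p = 0.064), that at C3 in apicidin without batch 2 (0.91, adjusted p = 0.070) or batch 3 (1.03, adjusted p = 0.15), that at C4 in panobinostat without any 1 batch (1.40, 0.80 and 1.39), and that at C4 in valproic acid without batch 1 (0.94, adjusted p = 0.23) or batch 3 (0.66, adjusted p = 0.21).

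**Figure D3:**
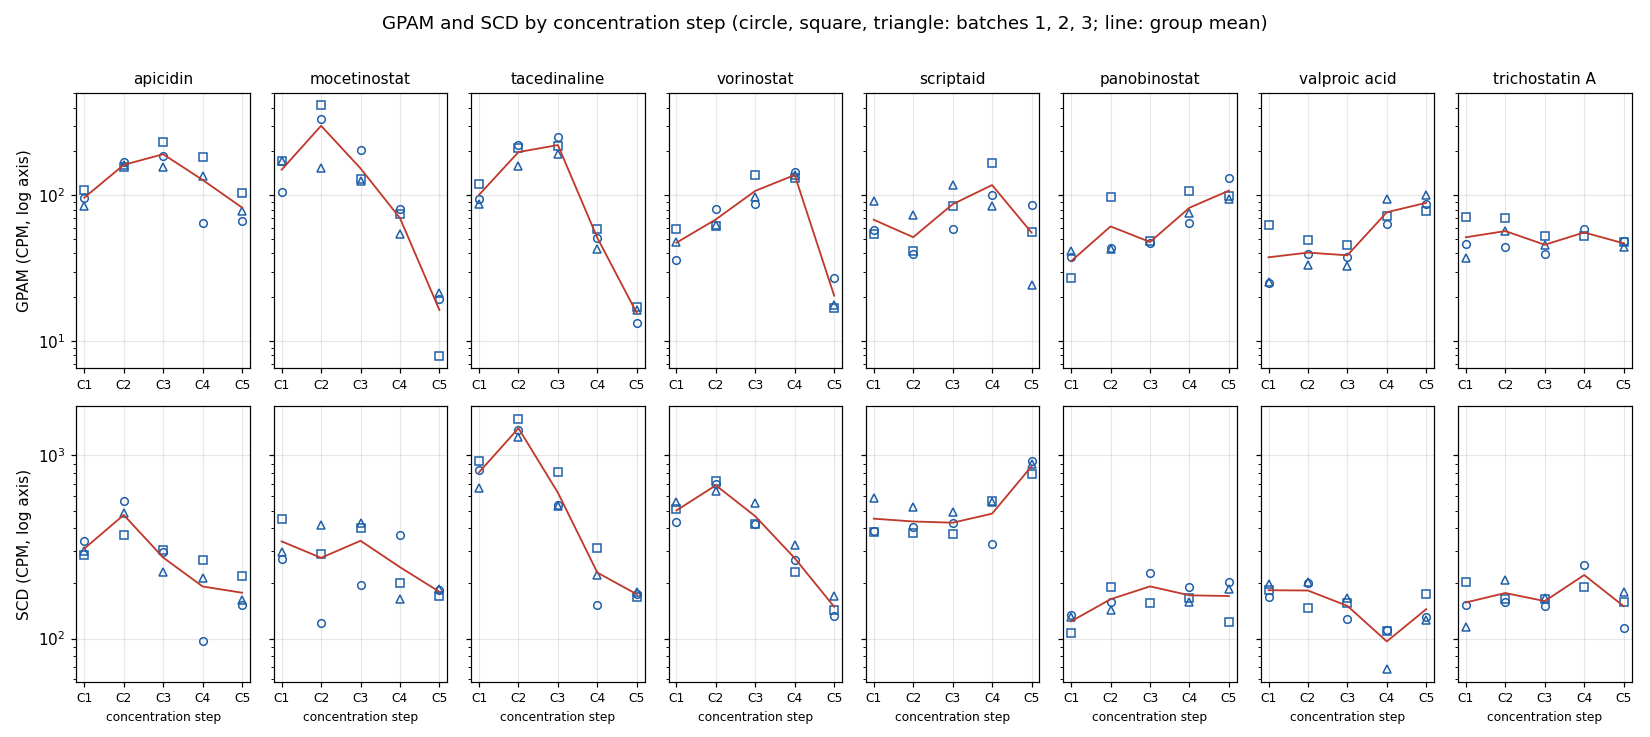
CPM of GPAM (upper row) and SCD (lower row) on log axes against the concentration step C1 to C5, 1 panel a chemical, with a symbol for each library by batch and a line through the group means. GPAM rises to C3 in tacedinaline and to C4 in vorinostat before it falls below C1 at C5, while in panobinostat and valproic acid its highest mean is at C5; SCD is highest at C5 in scriptaid alone.

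THRSP, whose level follows lipogenic signals, was close to no counts at the top step of 5 chemicals. In mocetinostat it had 539, 470 and 432 counts at C1 and 1, 1 and 5 counts at C5. In tacedinaline it had 103, 83 and 75 counts at C1 and 0, 1 and 1 at C5, and in apicidin 299, 205 and 127 at C1 and 2, 6 and 0 at C5. With so few counts the fitted fold depends on the prior count, so the ratio of C1 to C5 counts, scaled to library size, is given with its exact conditional binomial 95% interval, which covers counting error only. The level at C1 was 191 times that at C5 in mocetinostat (92.6 to 477), 111 times in tacedinaline (30.5 to 925), 74.3 times in apicidin (37.5 to 173), 47.2 times in vorinostat (8.24 to 1886) and 21.0 times in scriptaid (9.47 to 58.1). All 5 falls were called by the fit, with adjusted p values from 2.1e-10 in tacedinaline to 0.0025 in scriptaid. Vorinostat rests on 14, 39 and 31 counts at C1 and 1 count in all at C5, and scriptaid on 86, 47 and 38 counts at C1 and 1, 3 and 2 at C5.

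In trichostatin A, panobinostat and valproic acid THRSP was not called at C5, with log2 changes of -0.56, -0.91 and -1.43. Its C1 level in trichostatin A was 16.9, 15.4 and 0 CPM, the last in the library that stood apart. It was 4.41 to 11.7 CPM at C1 under panobinostat and 7.61 to 8.25 CPM under valproic acid. At C3 THRSP fell in tacedinaline (-2.65), mocetinostat (-2.49) and apicidin (-2.39). The calls in mocetinostat and apicidin were lost without batch 2 (-2.66, adjusted p = 0.084, and -2.48, adjusted p = 0.061). At C4 it fell in mocetinostat, tacedinaline, scriptaid, apicidin and vorinostat. The scriptaid call at C4 was lost without batch 1 (adjusted p = 0.13) or batch 2 (adjusted p = 0.16) and the vorinostat call without batch 2 (adjusted p = 0.091).

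MLXIPL, the glucose-responsive activator of the pathway, fell in 5 chemicals at C5. In tacedinaline it went from 302, 358 and 272 CPM to 102, 90.4 and 78.6 CPM (-1.71 ± 0.15), in vorinostat from 331, 318 and 241 CPM to 107, 118 and 84.9 CPM (-1.41 ± 0.16), and in mocetinostat from 344, 309 and 428 CPM to 109, 98.3 and 99.7 CPM (-1.73 ± 0.41). In scriptaid it went from 287, 257 and 270 CPM to 151, 133 and 61.1 CPM (-1.17 ± 0.28). Every C5 library lay below every C1 library in these. Apicidin had -0.70 ± 0.26 (adjusted p = 0.042), a call that was lost without batch 2 (-0.55, adjusted p = 0.26), without batch 3 (-0.73, adjusted p = 0.16) and under library totals alone (-0.61, adjusted p = 0.080). The mocetinostat call was lost without batch 2 (-1.81, adjusted p = 0.077), also at C4 (-1.73, adjusted p = 0.11), and the scriptaid call without batch 2 (-1.32, adjusted p = 0.062). Tacedinaline (-0.89) and mocetinostat (-1.52) were called at C4, and vorinostat had -0.58 there with an adjusted p of 0.0038, under the fold that a call needs. In mocetinostat C2 the level of MLXIPL split between the batches, with batches 1 and 2 above every C1 library, as given at the end.

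The number of members called at C4 was at or above that at C3 in 7 of the 8 chemicals and below it in apicidin. At C2 only tacedinaline had any, the rises of SCD and GPAM, beside 0.385% of all its features. The shares of all features called at C2 were 0.102% in apicidin, 0.191% in mocetinostat, 0.0172% in vorinostat and 0% in panobinostat, scriptaid, trichostatin A and valproic acid, and at an unadjusted p under 0.05 the members numbered 2, 4, 2, 1, 0, 1 and 0 in that order by edgeR. At C3 there were 4 member calls in apicidin and in tacedinaline, 2 in mocetinostat and 1 in vorinostat, beside 15.3%, 11.9%, 11.6% and 7.06% of all features. Panobinostat (0.00763% of all features), scriptaid (1.34%), trichostatin A (0%) and valproic acid (1.13%) had 0 member calls at C3 by edgeR, with 2, 2, 2 and 1 members at an unadjusted p under 0.05. At C4 there were 7 in tacedinaline, 6 in vorinostat, 4 in mocetinostat, 3 in apicidin, 2 in panobinostat and in valproic acid, and 1 in scriptaid, beside 32.8%, 32.3%, 23.7%, 22.3%, 2.56%, 11.9% and 4.87% of all features. Trichostatin A had 0 by edgeR, beside 0%, with 2 members at an unadjusted p under 0.05. Without the libraries that stood apart, mocetinostat had 7 calls at C2, of which 5 rose and 2 fell, 3 at C3 and 6 at C4, apicidin had 1 at C2 and 4 at C4, and valproic acid had 3 at C4. The shares of all features were then 34.4%, 17.7% and 32.8% in mocetinostat, 0.413% and 23.5% in apicidin, and 10.6% in valproic acid. In mocetinostat at C2 the share of all features was thus 0.191% with all libraries and 34.4% without its 2 libraries that stood apart, at C2 and C3. The C2 libraries kept there, of batches 1 and 2, also had mean correlations under 0.9 (0.850 and 0.895). The C2 library left out, of batch 3, was the nearest to C1, as given at the end. That fit therefore cannot tell which C2 libraries are typical of the group.

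The levels at C1, from which all changes above are counted, were not alike across chemicals of 1 plate. The C1 group of each chemical was compared with the mean of the other C1 groups of its plate in the fit of all 118 libraries. FASN at C1 was higher in mocetinostat by 1.53 ± 0.14 on the log2 scale (adjusted p = 3.3e-15), and SCD by 0.89 ± 0.20, THRSP by 3.15 ± 0.42 and GPAM by 1.57 ± 0.23, beside 1.11% of all features called. In tacedinaline FASN was higher by 0.80 ± 0.16 (0.249% of features). FASN was lower in trichostatin A, with -0.71 ± 0.16 (1.19% of features), and in valproic acid, with -0.77 ± 0.16 (0.0960%). For every chemical of plate H other than mocetinostat, the mean compared includes the high C1 group of mocetinostat. How far the lower values here and below rest on that group was not tested. Apicidin, panobinostat, scriptaid and vorinostat had 0 members called by edgeR, beside 0.0512%, 0.0448%, 0.0384% and 0% of features. In mocetinostat 3 or 4 members were called whichever batch was left out, beside 0.435% to 0.786% of features. The call in tacedinaline was lost without batch 1 or batch 2, that in valproic acid without batch 1 or batch 2, and that in trichostatin A without batch 2 or batch 3. Without the libraries that stood apart, 5 members were higher in mocetinostat, 4 in tacedinaline (FASN, SCD, THRSP and GPAM) and 1 in apicidin (SCD), 3 were lower in valproic acid (FASN, THRSP and GPAM), 2 in panobinostat (SCD and GPAM) and 0 in trichostatin A. The shares of all features called were then 1.97% in mocetinostat, 0.832% in tacedinaline, 0.303% in apicidin, 0.232% in valproic acid, 0.0967% in panobinostat and 0.0129% in trichostatin A. Each chemical had its own C1 concentration and its own C1 libraries, so an effect of the lowest concentration and a difference between these cultures cannot be told apart.

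**Figure D4:**
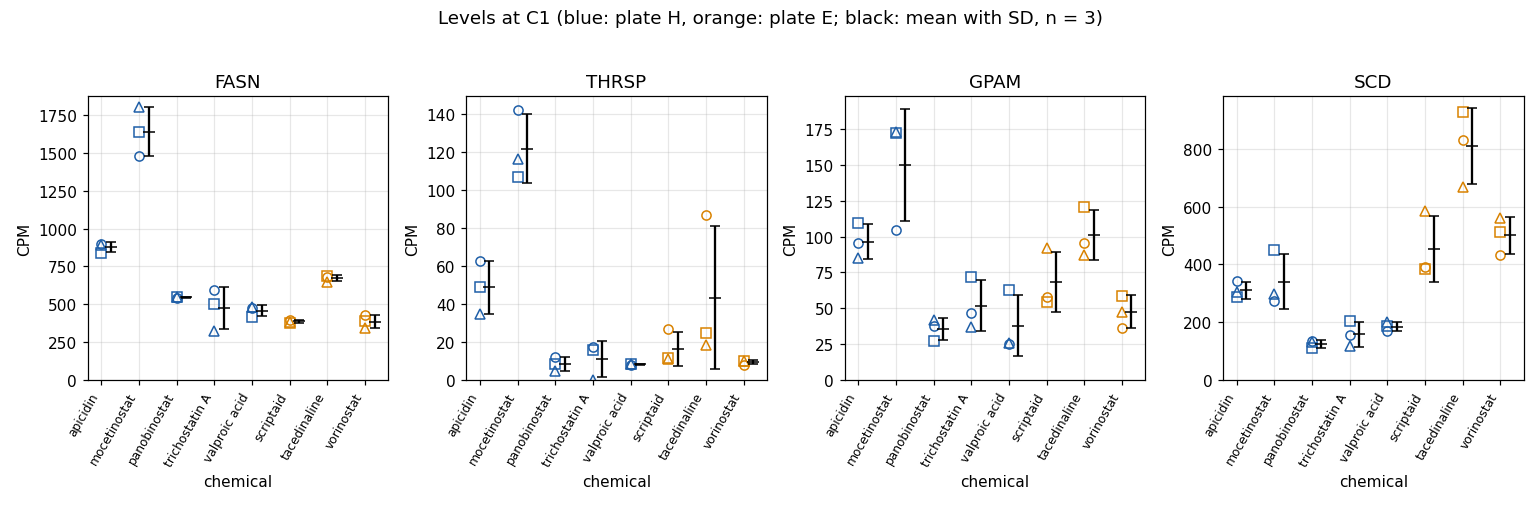
CPM at C1 of FASN, THRSP, GPAM and SCD on linear axes from 0, with a symbol for each library by batch, blue for plate H and orange for plate E, and the mean with its SD (n = 3) in black. FASN stands at 1478 to 1803 CPM in mocetinostat and at 838 to 901 CPM in apicidin, and at 320 to 592 CPM in the other chemicals of plate H.

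The changes of GPAM and SCD were compared between chemicals in 1 fit of all 118 libraries, as the difference of the C5 changes of a pair of chemicals. The top concentrations of the chemicals were not matched, so the values say how the changes at the labelled top steps differ and not how the chemicals compare at 1 dose. Of the 28 pairs, 17 had an adjusted p under 0.05 for GPAM and 14 for SCD. The 9 differences given next are the pairs called in opposite directions, so their direction was fixed by that choice. For GPAM, mocetinostat minus panobinostat was -4.81 on the log2 scale (95% interval -5.75 to -3.87), beside 11.7% of features with an adjusted p under 0.05 for that difference. Panobinostat exceeded tacedinaline by 4.29 (3.34 to 5.24, 9.43% of features) and vorinostat by 2.85 (1.90 to 3.81, 10.8%). The difference of mocetinostat minus valproic acid was -4.46 ± 0.48 (11.6% of features), that of tacedinaline minus valproic acid -3.94 ± 0.48 (9.69%) and that of valproic acid minus vorinostat 2.50 ± 0.49 (13.3%). For SCD, scriptaid exceeded tacedinaline by 3.16 (2.4 to 3.91, 1.70% of features) and vorinostat by 2.69 (1.94 to 3.45, 1.48%), and apicidin minus scriptaid was -1.75 ± 0.38 (4.10%). All 9 differences had adjusted p values of 0.0012 or lower, over all features of each pair. The choice of opposite calls from the same libraries favours small p values too. Between the benzamides mocetinostat and tacedinaline, at 3.9 and 44 µM, the difference was 0.36 for FASN (95% interval -0.19 to 0.90, adjusted p = 0.83), -0.52 for GPAM (-1.47 to 0.43, adjusted p = 0.88) and 1.30 for SCD (0.55 to 2.04, adjusted p = 0.23), beside 0.0512% of features, and the intervals do not show that they act alike.

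Over the 40 group means of log2 CPM, the members' levels went together to different degrees. The Pearson correlation of FASN was 0.85 with THRSP, 0.79 with ACACB, 0.76 with MLXIPL and 0.75 with ELOVL6, and ACACB and MLXIPL had 0.82. ACLY had at most 0.35 with any other member row, and SCD at most 0.485. The groups share libraries, plates and the shift in hepatocyte markers, so these are descriptions with no test. Among 11288 features tested in all chemicals, the gene whose pattern over the 40 groups was most like that of FASN was FADS1, a desaturase of polyunsaturated fatty acids (r = 0.955), and INSIG1, which retains SREBP precursors, had 0.873. The nearest gene to ELOVL6 was also FADS1 (0.832), to ACACB it was PARP3 (0.923), to MLXIPL AHCY (0.924), to THRSP SCP2 (0.901), to ACACA_91463 ETFA (0.802), to GPAM BICC1 (0.796), to SCD PGD (0.767) and to ACLY DBI (0.734).

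Other genes of the pathway are given as counts over lists of its regulators and neighbours. Medians of single genes below are over the chemicals in which they were tested. Of the regulators, 17 to 19 rows were tested, and 1 to 2 rose and 1 to 6 fell at C5 in each chemical other than trichostatin A, with list medians from -0.50 to -0.17. INSIG1 fell in 6 chemicals (median -1.31) and RXRA, the partner of LXR, in 5 (median -1.33), while INSIG2 rose in 6 (median 0.85) and PPARGC1B, a coactivator, in 5 (median 0.78). SREBF1, the lipogenic SREBP, named after its values were seen, passed the filter in 3 chemicals and was called in 0 of them. Among the 16 rows for acetyl-CoA and NADPH supply, 0 to 3 rose and 1 to 6 fell; HMGCS1, of sterol synthesis, fell in 6 (median -1.34) and NNT in 5 (median -2.03), while ME2 rose in 2 (median 1.00). Of the 8 to 9 tested rows of other elongases and desaturases, 0 to 3 rose and 0 to 2 fell; FADS1 fell in 5 (median -1.26), ELOVL5 rose in 4 (median 0.92), TECR rose in 2 (median 0.75), and ELOVL7 rose in 1 and fell in 1.

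Among the 8 to 10 tested partners in malonyl-CoA and fatty acid synthesis, 0 to 2 rose and 0 to 3 fell, with PRKAB2, a subunit of the kinase AMPK, falling in 5 (median -0.93), MID1IP1, the relative of THRSP, falling in 3 (median -0.98), MCAT of mitochondrial fatty acid synthesis rising in 3 (median 0.89) and OLAH rising in 2 of the 5 chemicals in which it was tested (median 3.22). Of the 12 to 14 rows of glycerolipid assembly, 0 to 4 rose and 1 to 6 fell; AGPAT2 fell in 6 (median -0.99), MOGAT2 fell in 5 (median -3.73), AGPAT5 rose in 4 (median 0.77) and AGPAT4 rose in 2 (median 1.64). Of the 8 to 9 rows of known MLXIPL targets outside the members, 2 to 3 rose and 3 to 5 fell, with list medians from -3.13 to -0.49. TXNIP and ARRDC4, of the arrestin family, rose in 7 chemicals each (medians 2.03 and 1.99), while G6PC, of hepatic sugar metabolism, fell in 7 (median -4.78). In trichostatin A 0 rows of these 6 lists were called.

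The shares of these lists called at C5 are set beside the shares of all features given above, which ran from 11.1% to 47.5% in the 7 other chemicals. The known MLXIPL targets had 62.5% to 100% of their tested rows called and lay above the share of all features in 7 of the 7 chemicals. The regulators (17.6% to 47.1%) and glycerolipid assembly (14.3% to 58.3%) lay above it in 5 of 7, acetyl-CoA and NADPH supply (12.5% to 50%) and the malonyl-CoA partners (10% to 50%) in 4 of 7, and the other elongases and desaturases (0% to 50%) in 3 of 7. Acetyl-CoA and NADPH supply in apicidin, for example, had 12.5% called beside 28.8% of all features.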

How the data were processed

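HepaRG cells were measured by TempO-Seq in 118 libraries. Per the labels and submitters' processing notes, the authors used bcl2fastq 2.20.422, fastp 0.23.2, STAR 2.7.10b and DESeq2 1.38.0, and deposited raw probe counts. The genome build and probe annotation were not given in the sources used here. The deposited table held 22069 rows, of which 1 with missing values in 88 libraries was left out.

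Groups followed the labels. In R 4.3.3, each chemical was fitted with edgeR 4.0.16 (limma 3.58.1), after filterByExpr and TMM scaling, by the quasi-likelihood test of C2 to C5 against C1 and of a slope on log2 labelled concentration, given as the fitted change over the 5 steps. Benjamini-Hochberg adjustment ran over all tested features, and a call needed an adjusted p under 0.05 and a fold of at least 1.5. Differences between chemicals and between C1 groups came from 1 fit of 118 libraries. Scripts were tested on simulated data. Counts reflect ligated probe pairs, so efficiency of a probe enters its level. Intervals of count ratios cover counting error only, while those of fitted differences include the spread between libraries.

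Alternatives were RLE size factors in edgeR, library totals alone, no filter, DESeq2 1.42.0, the batch as a block, 1 fit of all libraries, and leaving out each batch. The comparison of C1 groups and leaving out the lowest library of each group that held one with a mean correlation under 0.9 were chosen after seeing the data. The labels give the replicate numbers as HepaRG batches, and deviations from group means had a median correlation of 0.0361 within a batch (232 pairs) and -0.0145 between batches (464 pairs). The libraries of a group each came from a different batch, so p-values cover the spread between such libraries, all of 1 cell line. The small correlations do not separate batch from other differences between libraries.

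The members, the pathway and marker lists and the tests were chosen with earlier results of these data known. Named were all member rows, from each pathway list the 2 features rising and the 2 falling in the most chemicals, and for likeness the 3 nearest features of other genes, of which the first is given for most members. Genes outside this rule are marked where they occur. Some features that the rule names are not reported here, while the list counts include them. Motifs were searched in RefSeq promoter windows of GRCh38.p14.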

Additional observations from a re-analysis of the deposited data

Results flagged for a closer look

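The C5 change of 2 members was called in opposite directions in different chemicals, and the differences between those changes were tested in 1 fit of all 118 libraries. The top concentrations were not matched between chemicals. For GPAM the difference in log2 change was -4.81 for mocetinostat minus panobinostat, -4.46 for mocetinostat minus valproic acid, 4.29 for panobinostat minus tacedinaline, 2.85 for panobinostat minus vorinostat, -3.94 for tacedinaline minus valproic acid and 2.50 for valproic acid minus vorinostat. For SCD it was -1.75 for apicidin minus scriptaid, 3.16 for scriptaid minus tacedinaline and 2.69 for scriptaid minus vorinostat. The pairs were picked because their calls had opposite signs, so the direction of each difference was fixed by that choice. The calls of GPAM in valproic acid, of SCD in scriptaid and of SCD in apicidin were each lost when 1 batch was left out.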

How the results depend on the processing

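Of the 36 member calls at C5, 11 were lost when some batch was left out, as were 9 of 25 at C4, 7 of 11 at C3 and 2 of 2 at C2. Over these leave-outs the number of members called at C5 ran from 3 to 6 in apicidin, beside 17.7% to 25.4% of all features. It ran from 1 to 7 in scriptaid, beside 1516 of 12326 to 4638 of 12871 features. It ran from 0 to 1 in trichostatin A, beside 0 to 284 of 12675 features, and from 0 to 2 in valproic acid, beside 457 of 12955 to 1166 of 13121 features. For the line over 5 steps it ran from 3 to 6 in apicidin, beside 26.2% to 30.1% of all features. For the same line it ran from 3 to 6 in mocetinostat and from 0 to 1 in scriptaid, where all libraries gave 35.6% and 13.0% of all features. The comparison of C1 groups gave 0 to 1 in tacedinaline (0.0184% to 0.144% of all features), trichostatin A (0.00655% to 1.51%) and valproic acid (0% to 0.0917%). Without the libraries that stood apart it gave 1 in apicidin (0.303%), 2 in panobinostat (0.0967%), 4 in tacedinaline (0.832%), 0 in trichostatin A (0.0129%) and 3 in valproic acid (0.232%). With the batch as a replicate block no call was lost, and ACACB in scriptaid (-1.32) and ACACA_91463 in panobinostat (-0.64) were called at C5. Library totals alone moved the median change of all features to 0.10 in apicidin, 0.27 in mocetinostat, 0.16 in scriptaid, 0.22 in tacedinaline and 0.16 in valproic acid.

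Changes that turned sign were all uncalled in the main test. Under library totals alone ACACA_90988 was 0.014 in apicidin and 0.056 in mocetinostat, MLXIPL 0.017 in panobinostat, FASN 0.031 in scriptaid, and ACLY 0.11 and ACACA_91723 0.065 in tacedinaline. In the fit of all 118 libraries ACACA_90988 was -0.022 in tacedinaline. Without the libraries that stood apart ACACA_91463 was -0.044 and MLXIPL -0.13 in trichostatin A. Leaving out 1 batch, ACACA_90988 ran from -0.21 to 0.094 in apicidin, -0.060 to 0.74 in scriptaid, -0.16 to 0.22 in tacedinaline and -0.087 to 0.075 in trichostatin A, ACACA_91463 from -0.042 to 0.084 in apicidin and -0.054 to 0.84 in trichostatin A, ACACA_91650 from -0.66 to 0.0020 in apicidin, -0.017 to 0.47 in panobinostat and -0.24 to 0.29 in valproic acid, and ACACA_91723 from -0.053 to 0.27 in mocetinostat and -0.43 to 0.42 in tacedinaline. ACLY ran from -0.59 to 0.0023 in mocetinostat and -0.075 to 0.31 in valproic acid, and FASN from -0.51 to 0.18 and GPAM from -0.80 to 0.39 in scriptaid. In trichostatin A ACACB ran from -0.20 to 0.18, ELOVL6 from -0.74 to 0.53, GPAM from -0.27 to 0.18, MLXIPL from -0.16 to 0.48, SCD from -0.38 to 0.13 and THRSP from -1.29 to 0.19. The cause was not tested. Low counts limit what can be said of ME1, of ELOVL6 and of THRSP at C4 and C5.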

Other observations

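Besides scriptaid C4, whose split in ACACB is given above, member levels split within 3 groups with a library that stood apart. In mocetinostat C2, MLXIPL was 1228, 868 and 300 CPM, ACACA_91463 was 431, 317 and 114 CPM, and ACLY was 18.3, 25.3 and 73.9 CPM in batches 1 to 3, with batch 3 nearest to the C1 libraries (MLXIPL 309 to 428 CPM at C1). In apicidin C4, MLXIPL was 515, 212 and 212 CPM and GPAM was 65.2, 182 and 136 CPM. In trichostatin A C1, MLXIPL was 237, 219 and 92.6 CPM and ACACA_91463 was 106, 109 and 36.4 CPM.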
